A study of Mus musculus with 12 samples.

Results

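The genes that carry glucose into the cell, split it to pyruvate and decide the fate of that pyruvate were followed in hearts of mouse embryos at embryonic day 9.5. The set holds 36 genes of the 15663 listed for the series, taken by symbol from a named list: glucose transporters, the enzymes from hexokinase to lactate dehydrogenase, lactate and pyruvate carriers, the E1 subunits of pyruvate dehydrogenase with the kinases that switch it off, and glycogen synthase. All 36 were listed in every group and all passed the minimum of a mean of 1 CPM in each comparison. CPM here is the authors' count per library size, with that size scaled by them.

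Glycolysis breaks glucose down to pyruvate in the cytosol. Most of its steps can be run by several isoforms coded by separate genes, which differ between muscle, brain and other tissues and in how they are regulated. Pyruvate either becomes lactate, which leaves through monocarboxylate transporters, or enters mitochondria and is oxidised by the pyruvate dehydrogenase complex, which the PDK kinases inhibit. The early embryonic heart relies heavily on glycolysis, and many genes of the pathway are known targets of the hypoxia-inducible factors (HIF), which bind a short core sequence.

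The promoters of genes that moved in different ways are printed to show where that core stands, as the 250 bases before the annotated start, 5′ to 3′ on the strand of the gene, from RefSeq on GRCm38.p6. Capitals mark each match to ACGTG or GCGTG on either strand, so that CACGT and CACGC are the same motifs read from the other strand, and CACGTG counts at both of its overlapping positions. Hk2 (chr6:82774455-82774704, minus strand), Pfkp (chr13:6648772-6649021, minus strand), Pgk1 (chrX:106186850-106187099, plus strand) and the first of the Pdk1 promoters (chr2:71872974-71873223, plus strand) belong to genes that were higher in hearts with both Asb2 alleles floxed. Eno2 (chr6:124769674-124769923, minus strand) rose most of all and has no match in its window. Slc16a1 (chr3:104638414-104638663, plus strand) holds 4 matches and did not pass the test against the control. Pgam2 (chr11:5803797-5804046, minus strand) was lower and holds no match.
Hk2: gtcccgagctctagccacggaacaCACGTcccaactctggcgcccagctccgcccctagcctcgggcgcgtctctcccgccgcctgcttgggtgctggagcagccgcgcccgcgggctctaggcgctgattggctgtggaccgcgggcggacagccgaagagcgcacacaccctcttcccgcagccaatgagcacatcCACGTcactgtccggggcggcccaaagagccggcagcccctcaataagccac
Pfkp: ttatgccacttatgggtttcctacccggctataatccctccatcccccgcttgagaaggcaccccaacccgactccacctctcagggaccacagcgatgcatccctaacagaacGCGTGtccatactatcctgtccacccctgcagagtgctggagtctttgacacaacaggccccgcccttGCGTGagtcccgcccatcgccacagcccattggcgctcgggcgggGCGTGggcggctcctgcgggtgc
Pgk1: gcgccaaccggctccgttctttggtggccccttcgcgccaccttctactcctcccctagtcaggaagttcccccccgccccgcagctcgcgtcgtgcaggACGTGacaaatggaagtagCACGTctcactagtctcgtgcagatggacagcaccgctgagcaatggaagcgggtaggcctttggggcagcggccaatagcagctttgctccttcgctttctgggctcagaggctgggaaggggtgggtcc
Pdk1: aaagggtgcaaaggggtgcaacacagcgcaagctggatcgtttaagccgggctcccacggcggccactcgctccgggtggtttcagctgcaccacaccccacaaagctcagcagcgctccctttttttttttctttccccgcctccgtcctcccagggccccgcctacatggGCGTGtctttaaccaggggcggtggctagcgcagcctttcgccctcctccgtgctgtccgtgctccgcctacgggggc
Eno2: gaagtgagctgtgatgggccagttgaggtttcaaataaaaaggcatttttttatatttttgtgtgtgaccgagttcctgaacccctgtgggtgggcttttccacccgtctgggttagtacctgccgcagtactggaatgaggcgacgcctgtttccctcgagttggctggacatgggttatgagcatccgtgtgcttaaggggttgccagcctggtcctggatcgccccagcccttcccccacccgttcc
Slc16a1: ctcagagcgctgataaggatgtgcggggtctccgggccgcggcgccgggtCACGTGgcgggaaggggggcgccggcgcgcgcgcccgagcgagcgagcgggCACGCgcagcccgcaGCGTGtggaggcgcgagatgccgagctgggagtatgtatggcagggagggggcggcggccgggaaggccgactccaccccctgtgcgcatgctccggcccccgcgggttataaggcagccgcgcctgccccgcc
Pgam2: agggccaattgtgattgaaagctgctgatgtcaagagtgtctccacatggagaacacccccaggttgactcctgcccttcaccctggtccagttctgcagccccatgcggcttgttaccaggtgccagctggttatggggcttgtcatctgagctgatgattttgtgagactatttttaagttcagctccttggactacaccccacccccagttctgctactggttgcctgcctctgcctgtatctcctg

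RefSeq promoters were matched for 34 of the 36 genes; Slc2a3 and Slc2a4 are named only. Over windows of 300 bases (250 before the start and 50 after), 39 of the 51 promoters of these genes (76.5%) held at least 1 match, against 43.8% of all 32851 promoters in the table. Counted by gene, with a match in any of its promoters, 29 of the 34 held a match, against 46.7% of all 27025 genes with a promoter. Among the 21 genes that rose in the Asb2 cKO, 15 of the 19 with a promoter held a match. So did 3 of the 4 that fell and all 11 of those that did not pass the test. A match is a run of letters and not a measured binding site.

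Hearts came from 4 groups of 3 libraries each, all of strain C57/BL 6 and all carrying the NkxCre recombinase driver. Controls were NkxCre.Asb2fl/+, with 1 floxed Asb2 allele. The Asb2 cKO (conditional knockout) was NkxCre.Asb2fl/fl, the group labelled Flna-deleted was NkxCre.Asb2fl/+.Flnafl/fl, and the double mutant (dcKO) was NkxCre.Asb2fl/fl.Flnafl/fl. Every heart, the controls included, thus carried Cre and at least 1 floxed Asb2 allele, and only cells in which the driver is active recombine. Asb2 codes for the substrate receptor of a ubiquitin ligase that targets filamins, and Flna codes for filamin A, which crosslinks actin. The comparisons ask what loss of Asb2 changes in the heart, and whether the Flna label alters that. The labels do not say whether libraries are pools of embryos or 1 embryo each, and a p-value here covers no more than the library-to-library spread, part of which may be technical.

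Libraries held 25954539 to 42473118 reads in listed genes. Asb2 was at 289, 183 and 218 CPM in controls, at 77.8, 163 and 115 in the Asb2 cKO, at 125, 113 and 197 in the group labelled Flna-deleted and at 122, 121 and 153 in the double mutant. Against the control its level fell by 0.99 on the log2 scale in the Asb2 cKO (SE 0.26, adjusted p = 0.0248, limma) and by 0.78 in the double mutant (SE 0.17, adjusted p = 0.00724). In the group labelled Flna-deleted, with 1 floxed Asb2 allele, it was at -0.68 (SE 0.24, adjusted p = 0.334), and the double mutant did not pass against that group (-0.10, SE 0.21, adjusted p = 0.737). Libraries labelled Flna-deleted had Flna at 958 to 1011 CPM, and the double mutant at 1012 to 1146, above the 490 to 721 of controls, so that label rests on the genotype alone here. The Asb2 cKO, with no floxed Flna in its genotype, was also above the controls, at 1032, 869 and 725 CPM (0.58, SE 0.18, adjusted p = 0.0464, limma). Flna rose by 0.86 (SE 0.15, adjusted p = 0.00255) in the double mutant, and did not pass in the group labelled Flna-deleted (0.76, SE 0.14, adjusted p = 0.147). Summed levels of 11 primitive red blood cell markers fell from 7495 to 8108 CPM in controls to 525 to 1218 in the Asb2 cKO. They were 375 to 615 CPM in the double mutant and 3089 to 3955 in the group labelled Flna-deleted. Against the control, 11 of 11 were lower in the Asb2 cKO and in the double mutant (limma). Of all genes tested, 10.7% were higher and 10.9% lower in the Asb2 cKO, and 15.6 and 16.7% in the double mutant. In the group labelled Flna-deleted 3 of the 11 were lower and 0 higher, where 0.0432% of all genes were lower. The 13 sarcomere markers summed to 32754 to 49146 CPM in controls and 26075 to 43203 in the Asb2 cKO. They summed to 19749 to 36542 CPM in the group labelled Flna-deleted and 30782 to 47277 in the double mutant. Against the control, 0 of these were higher and 1 lower in the Asb2 cKO, and 1 and 1 in the double mutant. Sums of 9 pharyngeal endoderm and surface epithelium markers were 228 to 303 CPM in controls and 427 to 577 in the Asb2 cKO. They were 232 to 404 CPM in the group labelled Flna-deleted and 343 to 586 in the double mutant. Of the 8 tested against the control, 3 were higher and 0 lower in the Asb2 cKO, and 2 and 0 in the double mutant. Most of these sums came from Krt8 and Krt18, which averaged 102 and 97.6 CPM in controls and 209 and 199 in the Asb2 cKO. Sums of 10 endocardium and endothelium markers were 882 to 1061, 1044 to 1535, 771 to 999 and 1341 to 1745 CPM in the same order of groups. Against the control, 3 of these 10 were higher and 2 lower in the Asb2 cKO, and 6 and 0 in the double mutant. For 10 markers of the yolk sac endoderm and liver bud the sums were 10.3 to 320, 10.4 to 154, 157 to 554 and 2.92 to 6.48 CPM. Of these 10, 9 were lower in the double mutant than in the group labelled Flna-deleted, where 16.3% of all genes were. Against the control, 3 of the 10 were higher and 0 lower in the group labelled Flna-deleted, where 0.0288% of all genes were higher. Against that control, 2 of 9 tested were higher in the Asb2 cKO and 1 of 6 lower in the double mutant. The part that these cell types play in the results below was not tested, and in whole hearts fewer cells of a type and less RNA per cell cannot be told apart. Xist, the transcript of the inactive X chromosome, was under 1 CPM in 1 of 3 control libraries, 1 of 3 Asb2 cKO libraries, 3 of 3 libraries labelled Flna-deleted and 2 of 3 of the double mutant. Double mutant library 3 had 9.34 CPM, against 106 to 571 in the control and Asb2 cKO libraries above 1 CPM. Low Xist thus largely coincided with the Flna label, and the part of embryo sex in comparisons of that label was not tested.

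Glycolytic transcripts made up a larger share of the signal where both Asb2 alleles were floxed. The 36 genes took 1.64, 1.31 and 1.3% of the signal in controls and 1.21, 1.3 and 1.54% in the group labelled Flna-deleted. They took 2.22, 2.61 and 2.41% in the Asb2 cKO and 2.46, 2.47 and 2.39% in the double mutant. Both groups with 2 floxed Asb2 alleles stood clear of both groups with 1.

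**Figure D1:**
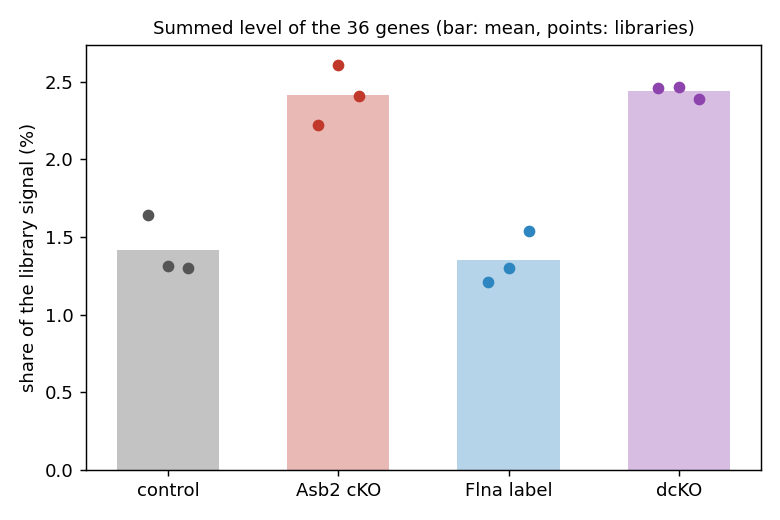
Summed level of the 36 genes as a percentage of each library's signal (points: libraries, bars: group means, 3 libraries per group). The 6 libraries with both Asb2 alleles floxed lie between 2.22 and 2.61%, and the other 6 between 1.21 and 1.64%.

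In the Asb2 cKO against the control, 21 of the 36 genes rose and 4 fell, and 11 did not pass an adjusted p of 0.05 (limma on log2(CPM + 0.5), adjusted over 14034 genes). Of all genes tested, 10.7% rose and 10.9% fell. The median log2 fold change was 0.775 for the 36 genes and -0.005 for all genes. Groups did not overlap, with the cKO above, for 23 of the 36 genes (20.0% of all genes) and with the cKO below for 5 (21.5%). Without control library 2 the counts were 15 higher and 3 lower. Slc2a1, Slc2a4, Aldoa, Tpi1, Gapdh, Eno1 and Mpc2 then missed the threshold, with adjusted p from 0.0555 to 0.105 and the same direction.

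In the double mutant against the control, with the same 3 control libraries, 21 genes rose and 5 fell. Of all genes tested, 15.6% rose and 16.7% fell. The median log2 fold change was 0.745, against 0.005 for all genes. Groups did not overlap for 23 genes with the double mutant above (23.6% of all genes) and for 6 with it below (24.2%). The count of genes lower was 2 when Xist level entered as a covariate in a joint fit, and 3 without control library 1.

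**Figure D2:**
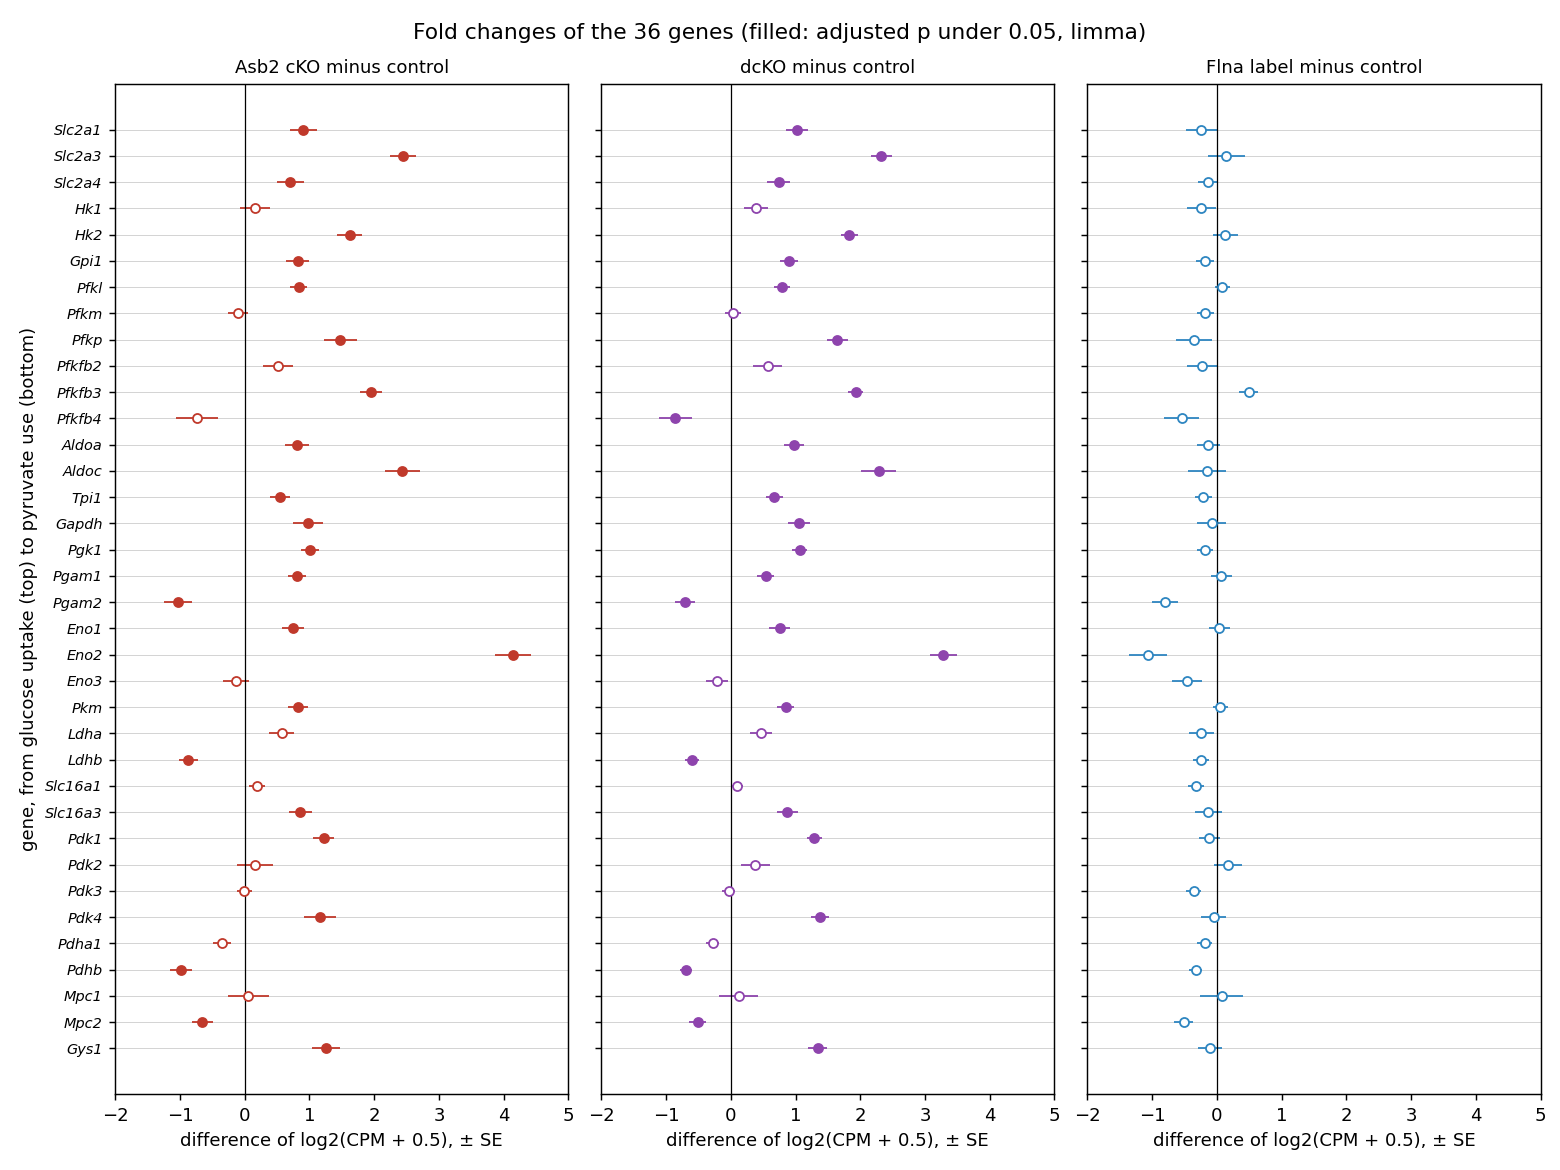
Difference of log2(CPM + 0.5) from the control with its SE for each of the 36 genes, in the Asb2 cKO, the double mutant and the group labelled Flna-deleted (3 libraries each; filled points: adjusted p under 0.05). Filled points are 25, 26 and 0 in number, and the 3 panels share the control libraries.

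Glucose transporters rose in both groups with 2 floxed Asb2 alleles. Slc2a1, which codes for the widespread transporter GLUT1, was at 1541, 1012 and 1050 CPM in controls and at 1757, 2735 and 2228 in the Asb2 cKO. Slc2a3 (chromosome 6, 122727809 to 122801640, minus strand), which codes for the high-affinity GLUT3 typical of neurons, was at 307, 193 and 201 CPM in controls, 1181, 1526 and 1086 in the Asb2 cKO, 171, 279 and 338 in the group labelled Flna-deleted and 1230, 1097 and 1127 in the double mutant. The lowest library with 2 floxed Asb2 alleles was thus well above the highest of the others. Its log2 fold change was 2.45 (SE 0.20, adjusted p = 9.08e-05) in the Asb2 cKO and 2.33 (SE 0.17, adjusted p = 2.07e-05) in the double mutant. That of Slc2a1 was 0.90 (SE 0.21, adjusted p = 0.0143) and 1.02 (SE 0.17, adjusted p = 0.00212). Slc2a4, which codes for the insulin-responsive GLUT4, was far lower in level, at 14.9 to 17.5 CPM in controls and 19.7 to 33.7 in the Asb2 cKO, and its call in the Asb2 cKO was lost in 6 of 19 alternatives. Per length, Slc2a3 made up 7.62% ± 0.18 (SD, n = 3) of the summed level of the 3 transporters in controls and 19.5% ± 2.56 in the Asb2 cKO, while Slc2a1 stayed the main one at 79.8%.

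Hexokinase traps glucose as glucose 6-phosphate. Hk2 (chromosome 6, 82725025 to 82774454, minus strand), the inducible isoform of muscle, was at 280, 202 and 214 CPM in controls, 590, 940 and 637 in the Asb2 cKO, 201, 240 and 331 in the group labelled Flna-deleted and 806, 813 and 837 in the double mutant. It rose by a log2 fold change of 1.62 (SE 0.20, adjusted p = 0.000567) in the Asb2 cKO and 1.83 (SE 0.13, adjusted p = 1.87e-05) in the double mutant. Hk1, the widespread isoform, was at 550, 360 and 486 CPM in controls and 371, 694 and 523 in the Asb2 cKO, with overlapping groups (0.16, SE 0.23, adjusted p = 0.635). Hk2 held 40.9% ± 2.93 (SD, n = 3) of the per-length hexokinase level in controls, 65.5% ± 3.00 in the Asb2 cKO, 47.2% ± 4.37 in the group labelled Flna-deleted and 65.1% ± 4.26 in the double mutant. The more abundant of these 2 hexokinase transcripts per length was therefore Hk1 in controls and Hk2 in both groups with 2 floxed Asb2 alleles.

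Phosphofructokinase 1 commits sugar to glycolysis, and its 3 genes did not move alike. Pfkp (chromosome 13, 6579768 to 6648777, minus strand), the platelet isoform, was at 223, 144 and 178 CPM in controls, 356, 751 and 467 in the Asb2 cKO, 126, 104 and 209 in the group labelled Flna-deleted and 484, 567 and 643 in the double mutant. Every library with 2 floxed Asb2 alleles was above every other. The log2 fold change was 1.48 (SE 0.26, adjusted p = 0.0053) in the Asb2 cKO and 1.65 (SE 0.17, adjusted p = 0.000155) in the double mutant. Pfkl, the liver isoform and the most abundant of the 3 per length, rose by 0.83 (SE 0.14, adjusted p = 0.00316) and 0.80 (SE 0.13, adjusted p = 0.00152). Pfkm, the muscle isoform, was at 142, 112 and 144 CPM in controls and 106, 139 and 124 in the Asb2 cKO, and did not pass the test there (-0.11, SE 0.15, adjusted p = 0.629) or in the double mutant (0.03, SE 0.13, adjusted p = 0.858). Gpi1, which interconverts the hexose phosphates before this step, rose by 0.82 (SE 0.18) and 0.90 (SE 0.14).

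The PFKFB enzymes make or remove fructose 2,6-bisphosphate, the strongest activator of phosphofructokinase 1. Pfkfb3, the isoform with the highest ratio of kinase to phosphatase activity, was at 30.6, 33.3 and 34.6 CPM in controls, 133, 159 and 99.6 in the Asb2 cKO, 37.7, 47.9 and 55.1 in the group labelled Flna-deleted and 145, 112 and 124 in the double mutant. It rose by 1.95 on the log2 scale (SE 0.17, adjusted p = 0.00011) in the Asb2 cKO and by 1.93 (SE 0.12, adjusted p = 7.66e-06) in the double mutant. Pfkfb4 went the other way at a low level, from 10.8, 6.5 and 5.78 CPM in controls to 3.63, 3.95 and 4.09 in the double mutant (-0.86, SE 0.25, adjusted p = 0.0273). That call was lost in 4 of 19 alternatives, and in the Asb2 cKO Pfkfb4 did not pass the test (-0.74, SE 0.32, adjusted p = 0.121). Pfkfb2, the cardiac isoform, did not pass in either comparison (0.52, SE 0.24, and 0.57, SE 0.23).

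**Figure D3:**
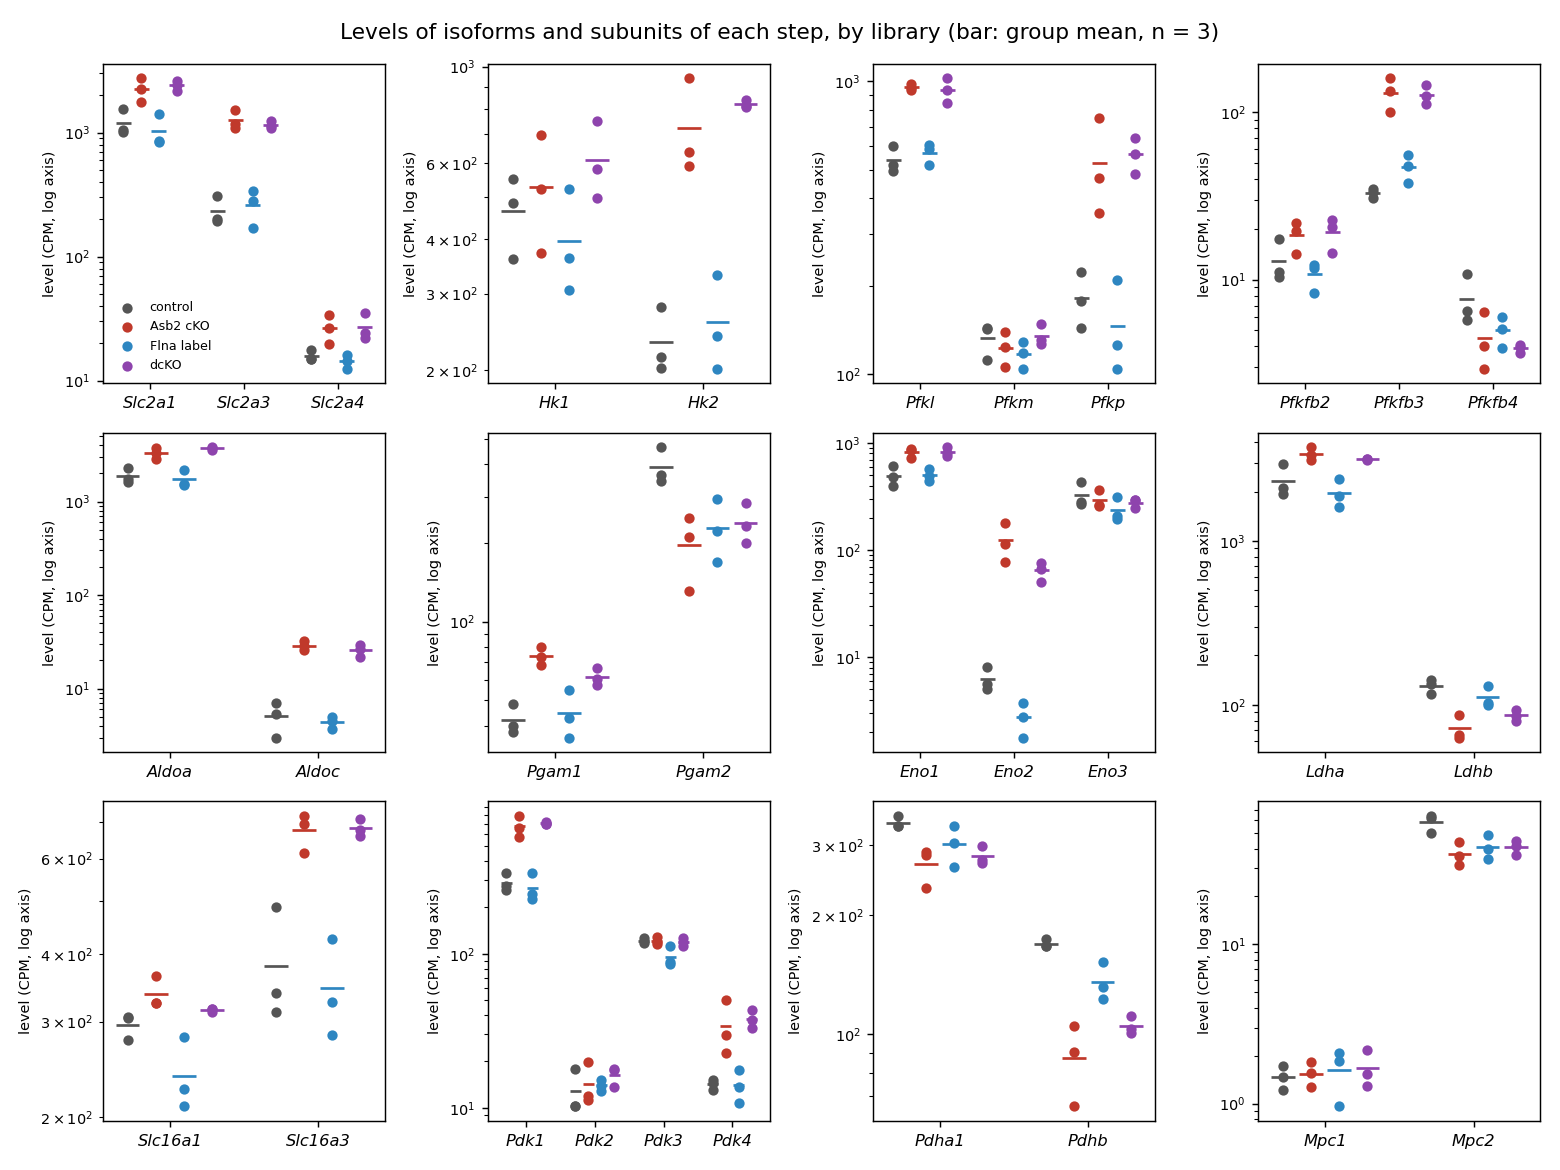
Level of each isoform or subunit in CPM on a log axis, by step (points: libraries, bars: group means, 3 libraries per group). Eno2 runs from 1.77 CPM in a library labelled Flna-deleted to 179 in an Asb2 cKO library, and Ldhb, Pdhb and Pgam2 lie below the control in the Asb2 cKO.

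From aldolase to pyruvate kinase, 7 genes rose in the Asb2 cKO by 0.54 (Tpi1) to 1.00 (Pgk1) on the log2 scale: Aldoa, Tpi1, Gapdh, Pgk1, Pgam1, Eno1 and Pkm. Of these, Pgam1 and Eno1 were not the main transcript of their step in controls, where per length Pgam1 held 4.72% of the mutase level and Eno1 37.4% of the enolase level. Aldoa, which cleaves fructose bisphosphate in muscle, was at 2303, 1623 and 1751 CPM in controls and 2850, 3756 and 3286 in the Asb2 cKO (0.81, SE 0.18, adjusted p = 0.0126). Tpi1, triose phosphate isomerase, rose by 0.54 (SE 0.15, adjusted p = 0.0287), and Pkm, which makes pyruvate, went from 2248, 1958 and 1878 CPM to 3626, 3448 and 3677 (0.83, SE 0.15, adjusted p = 0.0052). Pkm is counted per gene, so its M1 and M2 splice forms are not separated. Gapdh (0.98, SE 0.23), Pgk1 (1.00, SE 0.14), Pgam1 (0.81, SE 0.14) and Eno1 (0.75, SE 0.17) also rose. In the double mutant Aldoa, Tpi1, Gapdh, Pgk1, Pgam1, Eno1 and Pkm rose by 0.54 (Pgam1) to 1.06 (Pgk1) on that scale. Levels of Gapdh, Pgk1, Pgam1 and Eno1 are uncertain, because 58.4, 68, 41.5 and 49.5% of their 50-base windows also occur in another gene, most often a pseudogene, and Pkm shares 23.7%. Pgk1 lies on the X chromosome, and with Xist level as a covariate its log2 fold change was 1.02 in the Asb2 cKO and 0.99 in the double mutant.

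Eno2 and Aldoc rose by more, from a low start. Eno2 (chromosome 6, 124760053 to 124769673, minus strand), the neuronal enolase, was at 8.06, 5.02 and 5.58 CPM in controls and at 76.9, 179 and 114 in the Asb2 cKO. It was at 1.77, 2.77 and 3.75 CPM in the group labelled Flna-deleted and at 50.7, 67.2 and 76.2 in the double mutant. The 2 pairs of groups are far apart, and within each pair the group with the Flna label is the lower and does not overlap the other. Its log2 fold change against the control was 4.15 (SE 0.28, adjusted p = 4.79e-05) in the Asb2 cKO and 3.29 (SE 0.20, adjusted p = 7.27e-06) in the double mutant. Aldoc, the brain aldolase, went from 7.01, 2.99 and 5.41 CPM to 25.6, 28.4 and 32 in the Asb2 cKO and 22, 26.3 and 29.1 in the double mutant (log2 fold changes 2.44, SE 0.27, and 2.28, SE 0.27). Summed levels of 9 neural crest and pharyngeal mesenchyme markers were 43.8 to 108 CPM in controls and 55.1 to 135 in the Asb2 cKO, with 0 of 7 tested past the threshold, and their part in these rises was not tested. Per length Eno2 remained below Eno1, at 21.4 against 181 CPM per kilobase in the Asb2 cKO, and Aldoc far below Aldoa, at 8.67 against 1127.

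Pgam2 and Eno3, with the highest listed levels per length of their steps in controls, did not rise. That ranking is uncertain, because Pgam1 and Eno1 share 41.5 and 49.5% of their windows with other genes, while Pgam2 and Eno3 share 0%. Pgam2 (chromosome 11, 5801640 to 5803733, minus strand), the muscle phosphoglycerate mutase, was at 465, 365 and 345 CPM in controls, 131, 210 and 248 in the Asb2 cKO, 222, 169 and 294 in the group labelled Flna-deleted and 200, 285 and 233 in the double mutant. The controls were above all 9 other libraries. Per length Pgam2 held 95.3% ± 0.29 (SD, n = 3) of the mutase level in controls and 84.4% ± 5.50 in the Asb2 cKO. The log2 fold change was -1.03 (SE 0.22, adjusted p = 0.0101) in the Asb2 cKO, -0.71 (SE 0.16, adjusted p = 0.0078) in the double mutant and -0.80 (SE 0.20, adjusted p = 0.292) in the group labelled Flna-deleted. Eno3, the muscle enolase, was at 431, 283 and 268 CPM in controls and 265, 258 and 364 in the Asb2 cKO (-0.13, SE 0.20, adjusted p = 0.663), and its share of the enolase level was 62.3% ± 3.19 and 44.8% ± 3.45.

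The lactate end of the pathway shifted between its isoforms. Ldhb (chromosome 6, 142490249 to 142507957, minus strand), the lactate dehydrogenase subunit typical of adult heart, was at 117, 141 and 134 CPM in controls, 63, 87.2 and 65.3 in the Asb2 cKO, 131, 99.3 and 103 in the group labelled Flna-deleted and 85.8, 92.7 and 79.9 in the double mutant. The 6 libraries with 2 floxed Asb2 alleles were below the other 6. Ldhb fell by 0.87 on the log2 scale (SE 0.15, adjusted p = 0.00417) in the Asb2 cKO and by 0.60 (SE 0.11, adjusted p = 0.00351) in the double mutant. Ldha, the subunit typical of skeletal muscle, was at 2931, 2113 and 1926 CPM in controls and 3338, 3113 and 3744 in the Asb2 cKO. These groups do not overlap, but the difference missed the threshold (0.57, SE 0.19, adjusted p = 0.0517) and passed it in 7 of 19 alternatives. In the double mutant Ldha missed the threshold against the control (0.47, adjusted p = 0.0528). It passed against the group labelled Flna-deleted (0.71, SE 0.15, adjusted p = 0.00908). Slc16a3, which codes for the lactate exporter MCT4, went from 489, 312 and 339 CPM to 614, 720 and 696 in the Asb2 cKO (0.86, SE 0.18, adjusted p = 0.0086). Slc16a1, which codes for the widespread MCT1, was at 306, 304 and 277 CPM in controls and 324, 324 and 364 in the Asb2 cKO and did not pass the test (0.19, SE 0.13, adjusted p = 0.293).

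At the entry of pyruvate into mitochondria, 2 of 4 inhibitory kinases rose while a subunit of the enzyme and a carrier subunit fell. Pdk1 (chromosome 2, 71873224 to 71903858, plus strand), a kinase that inactivates pyruvate dehydrogenase, was at 336, 258 and 275 CPM in controls, 578, 788 and 660 in the Asb2 cKO, 227, 246 and 335 in the group labelled Flna-deleted and 697, 701 and 720 in the double mutant. It rose by 1.22 on the log2 scale (SE 0.16, adjusted p = 0.000914) in the Asb2 cKO and by 1.29 (SE 0.12, adjusted p = 9.16e-05) in the double mutant. Pdk4, the isoform induced by fasting, was at 13.1, 14.5 and 15.1 CPM in controls and 22.6, 50 and 29.8 in the Asb2 cKO (1.16, SE 0.25, adjusted p = 0.00969). Pdk2 and the X-linked Pdk3 did not pass in either comparison, at 0.16 (SE 0.27) and -0.00 (SE 0.12) in the Asb2 cKO.

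Pdhb (chromosome 14, 8165996 to 8173025, minus strand), the beta subunit of the E1 component, was at 174, 167 and 167 CPM in controls, 65.8, 90.5 and 105 in the Asb2 cKO, 132, 123 and 152 in the group labelled Flna-deleted and 103, 111 and 101 in the double mutant. It fell by 0.98 on the log2 scale (SE 0.17, adjusted p = 0.00343) in the Asb2 cKO and by 0.69 (SE 0.10, adjusted p = 0.000783) in the double mutant. A pseudogene shares 30.3% of its windows, so its level is uncertain. The X-linked Pdha1, which codes for the alpha subunit, did not pass (-0.35, SE 0.13, adjusted p = 0.0814, and -0.28, SE 0.10, adjusted p = 0.0564). Mpc2, a subunit of the mitochondrial pyruvate carrier, was at 64.2, 61.8 and 49.8 CPM in controls and 31.4, 36.1 and 44.1 in the Asb2 cKO (-0.65, SE 0.16, adjusted p = 0.0189), a call lost in 5 of 19 alternatives. Its partner Mpc1 was listed at 0.961 to 2.18 CPM in all groups, where a change could hardly be detected. Other genes share 26.8% of the Mpc1 windows, so that level is uncertain too. Gys1, glycogen synthase, which draws sugar away from glycolysis into glycogen, rose from 176, 126 and 173 CPM to 284, 528 and 351 (1.26, SE 0.22, adjusted p = 0.00444).

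Isoform balance was measured within each library as the log2 ratio of per-length levels, which does not depend on the scaling of the library. Of 23 pairs, 19 differed between the 6 libraries with 2 floxed Asb2 alleles and the 6 with 1 (exact permutation test, two-sided, adjusted over the 23 pairs), and 16 of these did not overlap. Where they did not overlap, p was 0.00216, the smallest that 6 against 6 libraries can give, and the adjusted p was 0.00311. The test shuffled all 12 libraries freely and took no account of the Flna label, which differs within each side. Groups of 3 against 3 cannot go below 0.10 and were not tested singly. Several pairs share a gene, so the 19 are not separate results. How often ratios of other genes differ in this way was not measured.

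The ratio of Hk2 to Hk1 averaged 0.92 with 2 floxed Asb2 alleles and -0.35 with 1. That of Pfkp to Pfkm rose by 1.69, Aldoc to Aldoa by 1.60, Eno2 to Eno1 by 3.69, Ldha to Ldhb by 1.25 and Slc16a3 to Slc16a1 by 0.63. Pdk1 rose over Pdk3 by 1.15, and Pdha1 over Pdhb by 0.45. Of the 23 ratios 5 fell: Pfkfb4 to Pfkfb3 by 2.28, Pfkfb4 to Pfkfb2 by 1.26, Pgam2 to Pgam1 by 1.12, Pfkl to Pfkp by 0.97 and Eno3 to Eno1 by 0.68. Libraries overlapped for Pfkfb4 to Pfkfb2 (adjusted p = 0.00786, exact permutation test), and for Pgam2 to Pgam1 and Pfkl to Pfkp (adjusted p = 0.00553 for each, exact permutation test). The pairs that did not pass were Slc2a4 to Slc2a1 (-0.27), Pdk3 to Pdk2 (-0.03), Pdk1 to Pdk4 (-0.01) and Mpc1 to Mpc2 (0.40), with adjusted p from 0.178 to 0.952. The pair of Pdk1 and Pdk4 thus kept close ratios, at 3.07 to 3.76 in the Asb2 cKO and 3.24 to 3.76 in controls, while both genes rose. Ratios with Pgam1, Eno1, Ldhb or Pdhb carry the uncertainty of windows shared with other genes. So do those with Mpc1, Pfkfb2, Pdha1, Pfkp and Ldha, which share 26.8, 25, 16.9, 15.4 and 10.4% of their windows.

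**Figure D4:**
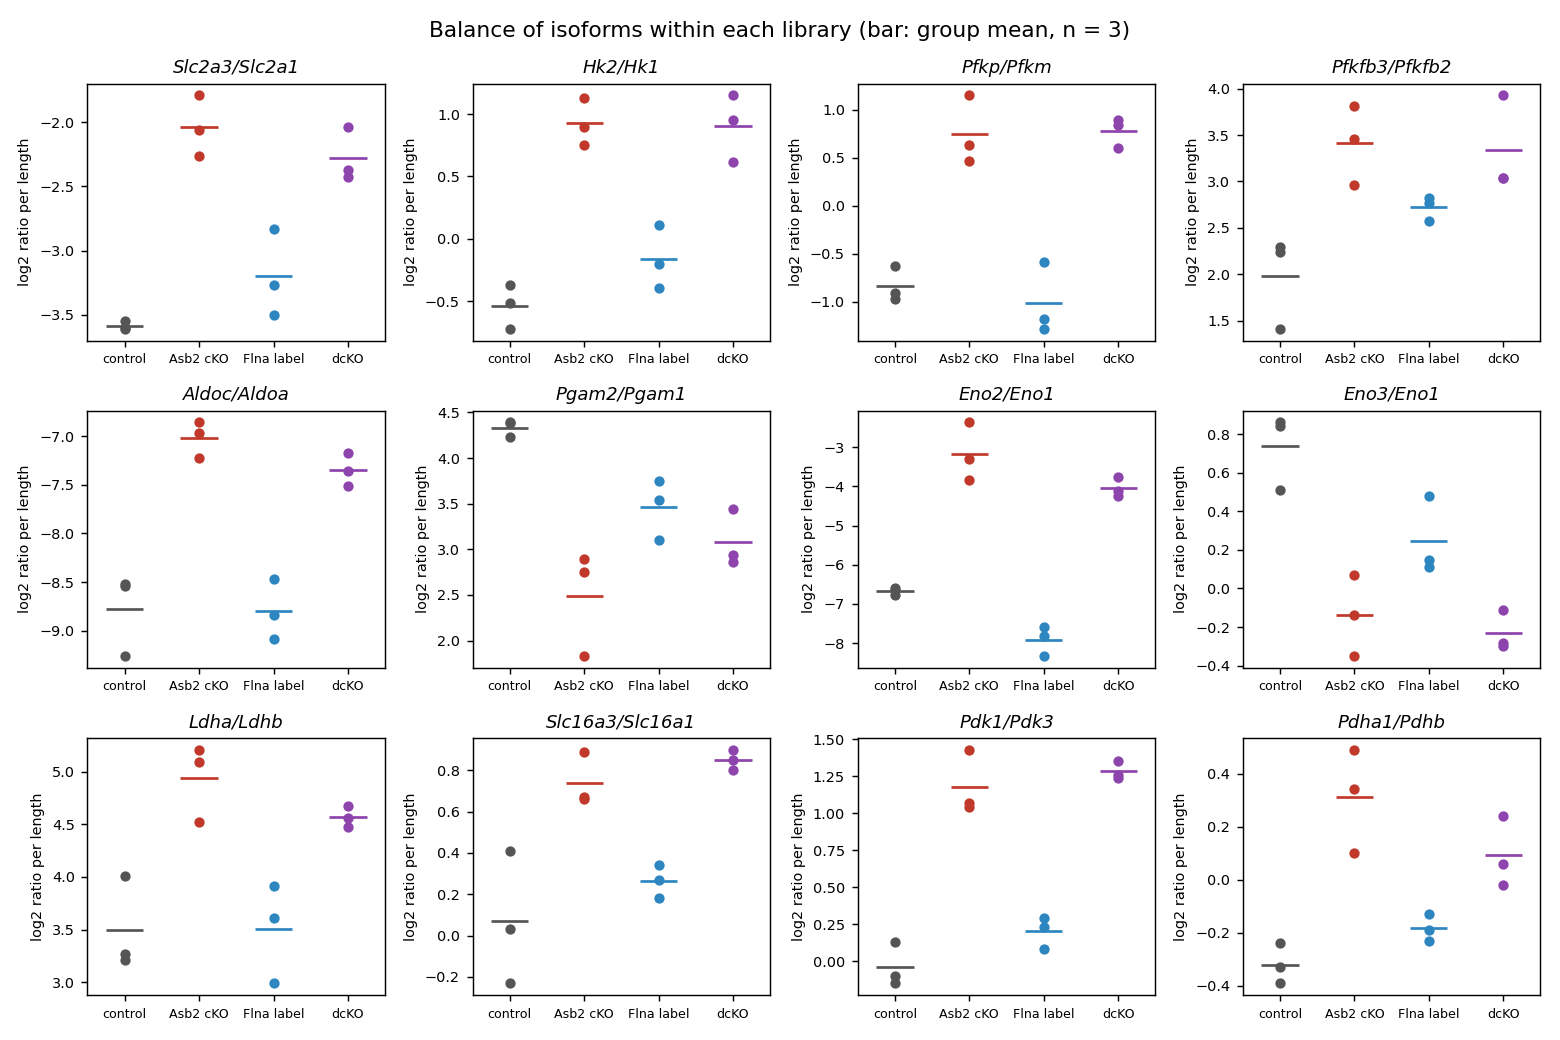
Log2 ratio of per-length levels for 12 of the 23 pairs, by library (points) with group means (bars, 3 libraries per group). For Hk2 to Hk1 the 6 libraries with both Asb2 alleles floxed lie at 0.62 to 1.15 and the other 6 at -0.72 to 0.11.

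In the group labelled Flna-deleted against the control, none of the 36 genes passed the test, where 0.0288% of all genes rose, 0.0432% fell and 0.072% did either. An unadjusted p under 0.05 was reached by 7 genes (19.4%), and by 13.1% of all genes: Pgam2, Eno2, Pfkfb3, Mpc2, Pdhb, Pdk3 and Slc16a1. DESeq2 called 1 gene, Pgam2, and edgeR none. Of these 7, Pfkfb3 was higher and did not overlap (0.49, SE 0.15, adjusted p = 0.292), and Eno2, Pgam2, Mpc2, Pdhb and Pdk3 were lower without overlap (-1.06 with SE 0.30 for Eno2, -0.51 with SE 0.15 for Mpc2). Groups did not overlap for 1 gene above and 5 below, where 9.27 and 8.71% of all genes did so. The median log2 fold change was -0.181, against 0.002 for all genes, and it was -0.055 without control library 1.

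Between the double mutant and the Asb2 cKO, 0 of the 36 genes passed in either direction, where 0.0142% of all genes rose, 0.00712% fell and 0.0214% did either. Groups did not overlap for 3 genes with the double mutant below, Eno2, Pgam1 and Slc16a1 (3.53% of all genes), and for 0 with it above (4.35%). At an unadjusted p under 0.05 stood 1 of the 36 (2.78%) and 3.36% of all genes. That gene was Eno2, at -0.86 (SE 0.27, adjusted p = 0.999). Neither edgeR nor DESeq2 called any of the 36. The differences of Hk2 (0.21, SE 0.18), Slc2a3 (-0.12, SE 0.16) and Pfkfb3 (-0.02, SE 0.17) were of the size of their errors. Against the group labelled Flna-deleted, 24 genes rose in the double mutant (15.1% of all genes) and 1, Pdhb, fell (16.3%), with a median of 0.799 against -0.019 for all genes. There 24 genes lay above without overlap (22.4% of all genes) and 2 below (25.1%). Eno2 differed by 4.35 (SE 0.25, adjusted p = 4.22e-05) and Slc2a3 by 2.19 (SE 0.23, adjusted p = 0.000693). Ldha, Slc16a1 and Pfkfb2, which did not pass against the control, were among the 24 that rose. Slc16a1 differed by 0.42 (SE 0.12, adjusted p = 0.0259) and Pfkfb2 by 0.80 (SE 0.21, adjusted p = 0.021). These 2 calls were lost in 6 and 3 of 19 alternatives. Pdhb differed by -0.36 (SE 0.10, adjusted p = 0.0261), a call lost in 9 of 19 alternatives. The interaction of the 2 labels passed at none of the 36 genes and at 0% of all genes. Unadjusted, 4 of the 36 (11.1%) had a p under 0.05 (Pgam2, Mpc2, Pdhb and Ldhb), as did 9.81% of all genes, and DESeq2 called none of the 36.

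Pathways next to glycolysis were read from lists of genes outside the 36. Of all genes tested in the Asb2 cKO, 10.7% rose and 10.9% fell. Of 9 other isozymes tested in the Asb2 cKO, 3 rose and 2 fell (limma). Those that fell were Bpgm (-1.39, SE 0.16, adjusted p = 0.000446) and Pklr (-2.89, SE 0.35, adjusted p = 0.000569). Bpgm is the bisphosphoglycerate mutase of red blood cells, and Pklr the pyruvate kinase of liver and red blood cells. Red blood cell markers fell as given above, and their part in these 2 falls was not tested. Among those that rose was Pck2, mitochondrial phosphoenolpyruvate carboxykinase (1.28, SE 0.25). Of 8 pentose phosphate genes none rose and 3 fell, Taldo1 (-0.93), Rpia (-1.23) and Rpe (-0.51). Of 9 genes of the NADH shuttles, which carry reducing equivalents of glycolysis into mitochondria, none rose and 4 fell, among them Gpd1l (-1.04), Mdh1 (-0.88) and Mdh2 (-0.68).

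Of 11 further genes of pyruvate handling, 2 rose and 4 fell in the Asb2 cKO, where 10.7% of all genes rose and 10.9% fell. Those that fell included Pdhx (-1.14, SE 0.14) and Dld (-0.82, SE 0.14), both parts of the pyruvate dehydrogenase complex, and Gpt2, which converts pyruvate to alanine, rose by 1.85 (SE 0.21). Of 10 other sugar and monocarboxylate transporters and chaperones 4 rose and 1 fell, and Bsg, the chaperone that MCT1 and MCT4 need at the membrane, rose by 0.90 (SE 0.17). Of 16 glycogen genes 4 rose and 4 fell. Epm2a, a glycogen phosphatase, rose by 1.64 (SE 0.26) and Pygl, the liver phosphorylase, by 0.94 (SE 0.16), while Ugp2, which makes the UDP-glucose for glycogen, fell by 0.69 (SE 0.14).

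Of 18 regulators of glycolytic transcription, 4 rose and 4 fell in the Asb2 cKO, where 10.7% of all genes rose and 10.9% fell. Of the 3 HIF prolyl hydroxylases Egln3 and Egln1 rose and Egln2 fell (-0.66, SE 0.14, adjusted p = 0.00996). Egln3 and Egln1 averaged 10.1 and 147 CPM in controls, and 99.8 and 468 in the Asb2 cKO. Their rises were 3.19 (SE 0.23, adjusted p = 4.79e-05) and 1.65 (SE 0.17, adjusted p = 0.000241) on the log2 scale. Hif1a itself averaged 351 CPM ± 14.2 (SD, n = 3) in controls and 205 ± 23.1 in the Asb2 cKO, and fell by 0.78 (SE 0.13, adjusted p = 0.00346, limma). Epas1, which codes for another HIF alpha subunit, averaged 21.4 CPM ± 2.88 in controls and 32 ± 9.72 in the Asb2 cKO. In the double mutant Epas1 rose by 0.85 (SE 0.145, adjusted p = 0.00222, limma) and Hif1a fell by 0.75 (SE 0.11, adjusted p = 0.00108). HIF protein was not measured here. In the double mutant the same lists gave 4 higher and 3 lower of 9 isozymes, 0 and 3 of 8, 0 and 4 of 9, 2 and 3 of 11, 2 and 1 of 10, 7 and 3 of 16, and 6 and 4 of 18. Of all genes tested in the double mutant, 15.6% were higher and 16.7% lower. In the group labelled Flna-deleted no gene of these 7 lists passed in limma, where 0.072% of all genes did.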

How the data were processed

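RNA of 12 heart libraries was sequenced. Per the submitters' processing notes, STAR, HTSeq and edgeR were used with mm10, without versions or roles, and strand use is not given in the sources used here. The authors deposited 4 tables of 15211, 15005, 15172 and 15124 genes. The values, named CPM per the file headers, carry the unit signal: columns sum to 942334 to 1051801, and 100.0% of values are whole reads within 0.01 read, which makes them counts per scaled library size, where plain CPM had been assumed. The deposited log2 fold changes, p-values and gene lengths are the authors' own. Of these, lengths were used for per-kilobase levels. Columns with no sample name, 12 of them, were not used.

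The tables, alike within 4.4e-06 CPM, were joined on gene ID to 15663 genes, and an absent gene was not set to 0. In listed genes, 1 read was worth 0.0239 to 0.0380 CPM. Groups were compared with limma 3.58.1 (trend, robust; R 4.3.3) after adding 0.5 CPM and taking log2, keeping genes that averaged 1 CPM or more, with Benjamini-Hochberg adjustment over all genes tested and a threshold of 0.05. edgeR 4.0.16 and DESeq2 1.42.0 on recovered reads were alternatives. In counts simulated for the Asb2 cKO comparison, limma was checked for recovery of known changes. Samples were not paired by library number: over 6 pairs of groups, same-numbered libraries correlated at -0.46 to 0.43, and in 0 of them did all 3 correlations exceed 0.1. With 3 libraries per group this cannot exclude a pairing or a shared batch. Positions came from GENCODE M21 (GRCm38).

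All 36 members are accounted for. Library values were given for members past the threshold against the control and isoforms of their step, as far as needed. Of each further list its counts were given with up to 3 members of smallest p. Egln2 and Epas1 were given in addition among the regulators. The members and lists were chosen with earlier results of these data known.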

Additional observations from a re-analysis of the deposited data

How the results depend on the processing

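Each group has 3 libraries, and levels of genes that share sequence with pseudogenes are uncertain. Of the genes called, 18 of 25 in the Asb2 cKO, 22 of 26 in the double mutant against the control and 21 of 25 between the double mutant and the libraries labelled Flna-deleted were called in all 19 alternatives, and the 19 isoform pairs in all 14. Fitted with a replicate block, the Asb2 cKO had 17 members higher and 3 lower, with 1557 genes called in all against 3033, and the double mutant 21 and 6. Between the double mutant and the libraries labelled Flna-deleted, that block raised the genes called in all from 4394 to 5474. Over all genes, calls in the Asb2 cKO also came to 1771 and 1581 when control library 1 or 2 was left out, and to 2004 when cKO library 2 was. Between the group labelled Flna-deleted and the control, 10 genes of all were called, 244 by DESeq2 and 98 without its library 3. For the double mutant, calls fell from 4523 against the control to 2875 without its library 2. Against the libraries labelled Flna-deleted they fell from 4394 to 2712 without that library, and to 2805 and 2776 without library 1 or 2 of the latter group.

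Counts of members lower were 1 for the group labelled Flna-deleted by DESeq2 and 0 to 1 without any 1 library, 2 for the double mutant against the control with Xist as a covariate and 3 to 5 without any 1 library. Between the double mutant and the libraries labelled Flna-deleted this count of 1 became 2 with a filter of 5 CPM, rescaling without the members, DESeq2 or the replicate block, 0 in limma without trend or robust, in the joint fit with or without Xist and with the length trend removed, and 0 to 1 without any 1 library.

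Signs turned only among members that missed the threshold. In the Asb2 cKO, with the length trend removed, Hk1 was at -0.028, Eno3 at 0.014 and Pdk3 at 0.072. Pdk3 was at 0.010 after rescaling by the median of ratios, 0.041 after rescaling without the members, and 0.011 in both edgeR and DESeq2. Leaving out a library gave ranges of -0.056 to 0.395 for Hk1, -0.289 to 0.084 for Eno3, -0.090 to 0.418 for Pdk2, -0.047 to 0.033 for Pdk3 and -0.041 to 0.156 for Mpc1. In the double mutant Pfkm was at -0.064 with Xist as a covariate and Pdk3 at 0.047 with the length trend removed, and the ranges were -0.085 to 0.098 for Pfkm, -0.341 to 0.001 for Eno3, -0.068 to 0.013 for Pdk3 and -0.042 to 0.248 for Mpc1. The ratio of Pdk1 to Pdk4 was 0.021 with 0.5 CPM added and -0.082 to 0.066 without any 1 library, and that of Pdk3 to Pdk2 was -0.133 to 0.086. The cause was not tested.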

Other observations

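Gapdh was listed at only 8.15 to 30.7 CPM in the 12 libraries. Per length its control mean was 4.69 CPM per kilobase, against 562 for Tpi1 and 784 for Pkm, enzymes before and after it in the same pathway. In the annotation, 222 other genes, 215 of them pseudogenes, share 50-base windows with it. A processed pseudogene of Pgk1, Pgk1-rs7, was listed at 23.1 to 29.7 CPM in controls and 35.8 to 37.3 in the Asb2 cKO, and it shared the direction of Pgk1. Whether reads of these genes were left out or split in counting was not tested.

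In the authors' deposited tables, 22 of the 36 genes were higher and 4 lower at an FDR under 0.05 in the Asb2 cKO against the control, where 13.2% of all its genes were higher and 13.5% lower. The authors' deposited table for the double mutant against the control has 22 higher and 5 lower, and 14.2 and 14.7% of all its genes. In the authors' deposited table for the group labelled Flna-deleted, 0 were higher and 1 lower, and 0.467 and 0.313% of all its genes.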
